A study of Homo sapiens with 4 samples.

Results

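The genes of HLA class I antigen presentation described here are the 9 rows of the gene table named HLA-B, HLA-C, HLA-E, B2M, TAP1, TAP2, TAPBP, ERAP1 and NLRC5, out of 58735 rows in all. They were chosen by name, not by a measured value, but with earlier results of these data known. RNA was sequenced from TTC28 knockout cells (TTC28 KO, genotype label TTC28 Knockout, 2 libraries) and from wild-type cells (WT, 2 libraries). Both groups were H1299 cells, labelled as lung and as NSCLC cells and as untreated. H1299 is an established human non-small cell lung cancer line without p53, and all 4 libraries share that background. TTC28 was edited with CRISPR/Cas9. The labels do not say whether the knockout cells were 1 clone or a pool, nor whether replicates were separate cultures, so the p-values measure only the spread between these libraries, which may be technical. The design text asks how gene expression of TTC28 KO cells compares with that of WT cells.

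HLA class I molecules show peptides from inside the cell to CD8+ T cells. Each holds a polymorphic heavy chain, such as HLA-B or HLA-C, or a near-invariant one (HLA-E), bound to beta-2 microglobulin, the light chain encoded by B2M. Proteasomes cut proteins into peptides, TAP1 and TAP2 form the transporter that moves them into the endoplasmic reticulum, and the aminopeptidase ERAP1 trims them there. TAPBP encodes tapasin, which bridges the transporter and the empty heavy chain, with calreticulin and PDIA3 at hand. NLRC5 is the transactivator of class I genes, acting on their promoters through a set of elements called the SXY module, and interferons raise the whole pathway through signalling by their receptors and IRF1. Lung and other tumours often show little class I at their surface.

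Promoter sequences are shown for HLA-B, HLA-C, B2M, TAP1 and TAPBP, to show the elements known from class I genes and where they lie. RefSeq windows on GRCh38.p14, from 250 bases before the gene's start to 50 after it, were found for 7 of the 9 members (9 windows, since TAP1 and ERAP1 have 2 each). No window was matched for HLA-E or NLRC5. The 250 bases before the start are printed from 5′ to 3′ along the gene's strand, in lower case. Capitals mark CCAAT (the core of the Y box), TGACG (the core of the X2 box), GAAA repeated after any 2 bases (a match to the interferon-stimulated response element, ISRE) and GGGGATTCC (a match to enhancer A), each on either strand, so that ATTGG, for example, is CCAAT on the opposite strand.
HLA-B, chr6:31357180-31357429, minus strand: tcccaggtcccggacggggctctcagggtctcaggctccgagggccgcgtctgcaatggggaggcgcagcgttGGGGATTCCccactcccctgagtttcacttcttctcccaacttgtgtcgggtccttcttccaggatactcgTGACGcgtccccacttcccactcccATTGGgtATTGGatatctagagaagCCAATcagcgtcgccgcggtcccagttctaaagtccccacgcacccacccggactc
HLA-C, chr6:31272093-31272342, minus strand: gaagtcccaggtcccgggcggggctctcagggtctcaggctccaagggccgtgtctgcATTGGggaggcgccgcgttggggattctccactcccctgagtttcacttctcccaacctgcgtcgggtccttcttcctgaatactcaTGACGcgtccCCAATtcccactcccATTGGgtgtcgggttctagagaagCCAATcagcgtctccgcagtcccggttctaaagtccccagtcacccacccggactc
B2M, chr15:44711267-44711516, plus strand: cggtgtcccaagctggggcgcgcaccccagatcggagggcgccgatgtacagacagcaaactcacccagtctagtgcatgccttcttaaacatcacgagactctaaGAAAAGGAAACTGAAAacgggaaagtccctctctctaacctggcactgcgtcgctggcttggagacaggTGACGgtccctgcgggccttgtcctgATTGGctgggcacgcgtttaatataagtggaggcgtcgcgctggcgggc
TAP1, chr6:32853705-32853954, minus strand: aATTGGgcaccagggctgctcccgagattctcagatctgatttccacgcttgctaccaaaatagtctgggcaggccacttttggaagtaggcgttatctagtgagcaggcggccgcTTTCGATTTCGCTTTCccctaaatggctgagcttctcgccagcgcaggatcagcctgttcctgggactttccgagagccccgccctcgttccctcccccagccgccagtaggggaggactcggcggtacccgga
TAPBP, chr6:33314079-33314328, minus strand: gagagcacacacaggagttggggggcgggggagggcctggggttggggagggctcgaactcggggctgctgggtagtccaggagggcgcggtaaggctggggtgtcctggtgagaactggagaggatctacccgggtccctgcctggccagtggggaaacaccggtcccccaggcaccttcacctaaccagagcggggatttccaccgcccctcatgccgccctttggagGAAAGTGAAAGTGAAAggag

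The HLA-B and HLA-C windows were alike, with 269 of 296 aligned bases identical (90.9%). In HLA-B the TGACG began 106 bases before the start and an ATTGG followed it 25 bases further on. In HLA-C the TGACG began 105 bases before the start, with an ATTGG again 25 bases further on, and in B2M it began 75 bases before the start with an ATTGG 26 bases further on. This order and distance, searched for after these positions were seen, occurred in 53 of 35116 promoter windows of all genes (0.151%). The ISRE match lay in B2M and TAP1 more than 100 bases before the start and in TAP2 and TAPBP within 60 bases of it. In B2M, TAP1 and TAPBP there were 2 matches that overlap each other, and ERAP1 had 1 just after its start. The match was present in 5 of the 7 members, in 1 window each, against 3.57% of all windows. Looser forms of the element were not searched, so HLA-B and HLA-C, which had no match, are not shown to lack it. Among the 7 matched members GGGGATTCC stood in HLA-B only, 177 bases before the start, and in 0.285% of all windows. CCAAT occurred in 34.6% of all windows, TGACG in 24.6%, the GC box GGGCGG in 45.0% and TATAAA in 11.5%. These matches are letters in the reference, and binding of a factor was not measured.

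**Figure D1:**
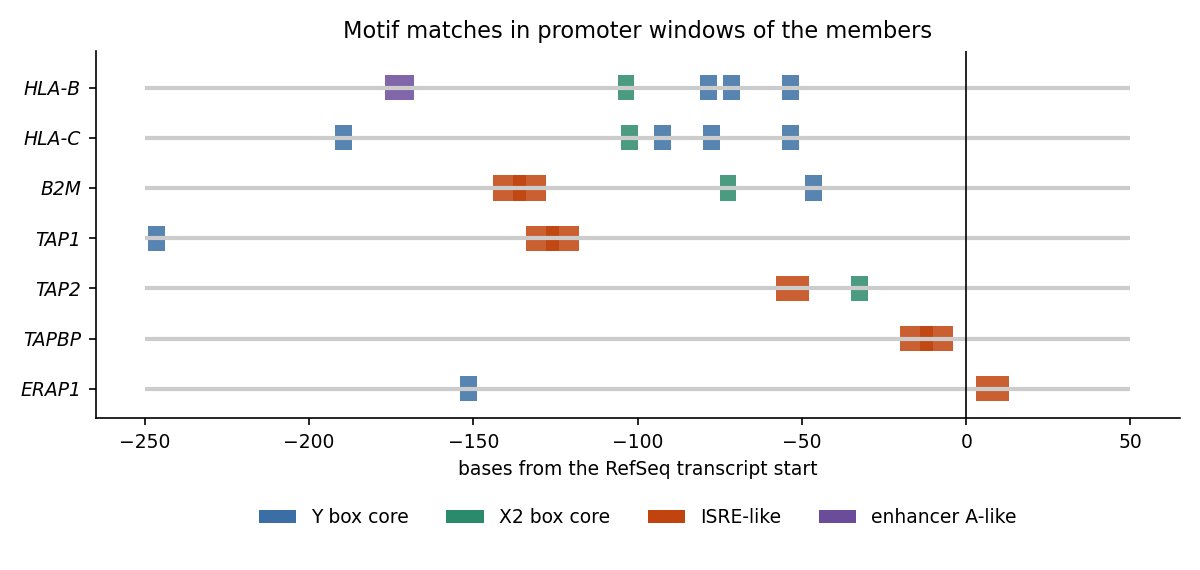
Matches to 4 motifs in the first RefSeq promoter window of 7 members. The horizontal axis is the distance from the gene's start in bases, each row is a gene and each coloured mark a match on either strand. TGACG followed 25 or 26 bases further on by ATTGG is seen in HLA-B, HLA-C and B2M, and the ISRE-like match in B2M, TAP1, TAP2, TAPBP and ERAP1.

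The libraries held 28885443 and 25120500 counts in TTC28 KO and 25808423 and 27043491 in WT. Mitochondrially encoded genes took 8.61% and 10.2% of the counts in TTC28 KO and 6.07% and 5.87% in WT; the part of this difference in the results was not tested, beyond the scaling without these genes given at the end. The log CPM of the libraries correlated across genes, which are not independent replicates, at 0.996 within TTC28 KO, 0.997 within WT and 0.974 to 0.977 between them. TTC28 had 2.96 and 2.99 FPKM in TTC28 KO, against 4.88 and 5.44 FPKM in WT (FPKM, the authors' scale, is fragments per kilobase of gene relative to the depth of the library). It fell by 0.79 ± 0.0763 on the log2 scale (SE, n = 2 each, edgeR Benjamini-Hochberg adjusted p = 2.78e-06), to 0.577 of WT, so its RNA remained in the knockout libraries. Markers of other cells were close to 0. The 8 immune markers, 6 fibroblast markers and 6 endothelial markers were each under 1 FPKM on average in both groups. Their sums were 0.203 and 0.171 FPKM in TTC28 KO and 0.102 and 0.285 FPKM in WT for immune cells, 0.470 and 0.555 against 0.200 and 0.339 FPKM for fibroblasts, and 0.467 and 0.391 against 0.219 and 0.207 FPKM for endothelium. CD3E, MS4A1 and LUM, which define T cells, B cells and fibroblasts, had 0 counts in all 4 libraries, and PTPRC, carried by all immune cells, had 2 and 0 counts in TTC28 KO and 0 and 0 in WT. The largest of the fibroblast markers in both groups was COL1A1 (0.437 FPKM in TTC28 KO, 0.174 in WT), and KDR among the endothelial markers had 0.201 FPKM in TTC28 KO and 0.0197 in WT. Among genes reaching 0.1 FPKM COL1A1 was called higher, 2.48-fold (edgeR Benjamini-Hochberg adjusted p = 0.00112). KDR reached that minimum only through the knockout libraries, so no test of it is given. The part of these low sums in the results was not tested. Of the 9 epithelial markers only KRT8, KRT18 and KRT7 passed the minimum for testing. EPCAM, CDH1 and KRT19, which define most lung epithelium, were near 0. The sum was 213 and 199 FPKM in TTC28 KO and 170 and 164 FPKM in WT. Most of it was KRT18 (mean 165 FPKM in TTC28 KO, 141 in WT) and KRT8 (39.9 in TTC28 KO, 23.9 in WT). KRT7 went the other way, with 0.745 and 0.570 FPKM in TTC28 KO, against 1.94 and 2.02 FPKM in WT. It reached the minimum only through the WT libraries, so no test of it is given. The part of these differences in the results was not tested.

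Most members were higher in TTC28 KO: HLA-B and HLA-C among the heavy chains, the light chain B2M, both chains of the peptide transporter and tapasin. HLA-E and ERAP1 did not pass the test, and no member fell. Changes of these 6 were moderate, from 1.16-fold for TAP1 to 1.49-fold for HLA-C. On a TPM scale the calls of HLA-B and TAP1 were lost (limma adjusted p = 0.225 and 0.557). Other genes of the pathway were mixed, with 21 of 69 tested higher and 16 lower. The 13079 genes reaching 1 FPKM in 2 or more libraries were tested with edgeR's quasi-likelihood test on counts, with a Benjamini-Hochberg adjusted p under 0.05 as the threshold. Of the 9 members 8 passed this minimum, and of these 6 were higher and 2 did not pass the test. The difference between the genotypes was wide across the transcriptome, since 25.1% of all tested genes were higher in TTC28 KO and 25.2% lower, 50.3% in either direction. The median log2 fold change was 0.37 over the 8 tested members and 0.00 over all tested genes. In bulk RNA, more cells with a transcript and more transcript in each cell cannot be told apart.

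HLA-C (ENSG00000204525, hg38 chromosome 6, 31268749 to 31272130, minus strand), a heavy chain that presents peptides and is read by killer cell receptors, had the largest fold change of the tested members. It measured 39.1 and 35.0 FPKM in TTC28 KO, against 25.1 and 24.9 FPKM in WT, or 2735 and 2143 counts against 1649 and 1701. The lower knockout library stood well above both WT libraries. The means were 37.1 ± 2.93 and 25.01 ± 0.138 FPKM (SD, n = 2 each) in TTC28 KO and WT. HLA-C rose by 0.57 ± 0.0691 on the log2 scale (SE, 1.49-fold, edgeR Benjamini-Hochberg adjusted p = 1.92e-05).

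HLA-B (ENSG00000234745, chromosome 6, 31269491 to 31357188, minus strand), the member with the highest FPKM, measured 85.8 and 79.5 FPKM in TTC28 KO, against 69.2 and 66.9 FPKM in WT. Its counts were 7299 and 5922 in TTC28 KO and 5528 and 5556 in WT. Per length and depth the groups did not overlap. With means of 82.7 ± 4.50 FPKM in TTC28 KO and 68.0 ± 1.62 FPKM in WT (SD, n = 2 each), it rose by 0.28 ± 0.0633 on the log2 scale (SE, 1.22-fold, edgeR Benjamini-Hochberg adjusted p = 0.00220). The call was lost on a TPM scale (log2 fold change 0.12, limma adjusted p = 0.225), which moved the median of all genes by -0.16.

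HLA-E (ENSG00000204592, chromosome 6, 30489467 to 30494205, plus strand) presents leader peptides of other class I chains to the NKG2 receptors of natural killer cells. It measured 66.3 and 61.1 FPKM in TTC28 KO, against 63.8 and 65.9 FPKM in WT, with 5496 and 4442 counts against 4969 and 5339. One knockout library lay above both WT libraries and the other below both, which made HLA-E the only tested member whose groups overlapped. The means were 63.7 ± 3.64 FPKM in TTC28 KO and 64.8 ± 1.51 FPKM in WT (SD, n = 2 each). Its log2 fold change was -0.02 ± 0.0628 (SE, edgeR Benjamini-Hochberg adjusted p = 0.794).

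B2M (ENSG00000166710, chromosome 15, 44711487 to 44718877, plus strand), the light chain that every class I heavy chain needs to leave the endoplasmic reticulum, measured 60.9 and 59.9 FPKM in TTC28 KO, against 42.8 and 41.8 FPKM in WT. Behind these stood 10317 and 8899 counts in TTC28 KO and 6810 and 6927 in WT. Replicates lay within about 1 FPKM of each other and the groups were far apart. The means were 60.4 ± 0.676 FPKM in TTC28 KO and 42.3 ± 0.652 FPKM in WT (SD, n = 2 each). B2M rose by 0.52 ± 0.0605 on the log2 scale (SE, 1.43-fold, edgeR Benjamini-Hochberg adjusted p = 1.47e-05).

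Both chains of the peptide transporter rose. TAP2 (ENSG00000204267, chromosome 6, 32821833 to 32838780, minus strand) measured 8.33 and 8.73 FPKM in TTC28 KO, against 6.39 and 5.83 FPKM in WT, with 1484 and 1362 counts against 1070 and 1015. Its means were 8.53 ± 0.279 FPKM in TTC28 KO and 6.11 ± 0.396 FPKM in WT (SD, n = 2 each), and it rose by 0.48 ± 0.0788 on the log2 scale (SE, 1.40-fold, edgeR Benjamini-Hochberg adjusted p = 0.000218). TAP1 (ENSG00000168394, chromosome 6, 32845209 to 32853978, minus strand) measured 13.0 and 13.4 FPKM in TTC28 KO, against 11.2 and 11.6 FPKM in WT, with 1738 and 1571 counts against 1411 and 1512. For both subunits each knockout library was above each WT library. TAP1 had means of 13.2 ± 0.289 FPKM in TTC28 KO and 11.4 ± 0.244 FPKM in WT (SD, n = 2 each), and rose by 0.21 ± 0.0681 on the log2 scale (SE, 1.16-fold, edgeR Benjamini-Hochberg adjusted p = 0.0180). The TAP1 call rests on the libraries and the scaling: the edgeR adjusted p lay between 0.0159 and 0.133 when each library was left out in turn, and was past 0.05 without TTC28 KO replicate 2, WT replicate 1 or WT replicate 2. In the authors' deposited table TAP1 had an adjusted p of 0.0923.

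Tapasin, which holds the empty heavy chain next to the transporter and edits its peptide, rose with them. TAPBP (ENSG00000231925, chromosome 6, 33299694 to 33314387, minus strand) measured 25.5 and 27.2 FPKM in TTC28 KO, against 18.7 and 19.9 FPKM in WT, from 3588 and 3355 counts against 2479 and 2739. The groups were separate. With means of 26.3 ± 1.21 FPKM in TTC28 KO and 19.3 ± 0.831 FPKM in WT (SD, n = 2 each), it rose by 0.45 ± 0.0648 on the log2 scale (SE, 1.37-fold, edgeR Benjamini-Hochberg adjusted p = 8.19e-05).

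ERAP1 (ENSG00000164307, chromosome 5, 96760810 to 96808100, minus strand), the aminopeptidase that trims the ends of peptides, measured 8.70 and 9.09 FPKM in TTC28 KO, against 8.12 and 8.41 FPKM in WT. Its counts were 1927 and 1763 in TTC28 KO and 1691 and 1820 in WT. Per length and depth both knockout libraries were above both WT libraries, by a small margin. The means were 8.89 ± 0.271 FPKM in TTC28 KO and 8.27 ± 0.203 FPKM in WT (SD, n = 2 each), and the log2 fold change of 0.11 ± 0.0662 (SE, edgeR Benjamini-Hochberg adjusted p = 0.192) did not pass the test; on the TPM scale its sign turned, with a value of -0.056. In all, 7 of the 8 tested members had separate groups with TTC28 KO higher, against 37.6% of all tested genes.

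NLRC5 (ENSG00000140853, chromosome 16, 56989485 to 57083531, plus strand), the transactivator, was the scarcest member. It measured 0.747 and 0.582 FPKM in TTC28 KO, against 0.444 and 0.382 FPKM in WT, from 258 and 176 counts against 144 and 129. The groups did not overlap, with means of 0.665 ± 0.117 FPKM in TTC28 KO and 0.413 ± 0.0434 FPKM in WT (SD, n = 2 each). Since it lies under 1 FPKM it was tested over the 21208 genes reaching 0.1 FPKM in 2 or more libraries, of which 35.0% changed and 16.9% were higher. There it rose by 0.68 ± 0.163 on the log2 scale (SE, 1.60-fold, edgeR Benjamini-Hochberg adjusted p = 0.00505). The edgeR adjusted p was 0.0557 without TTC28 KO replicate 1, with a log2 fold change of 0.48, and limma on log2(FPKM + 1) gave a difference of 0.23 and an adjusted p of 0.130.

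**Figure D2:**
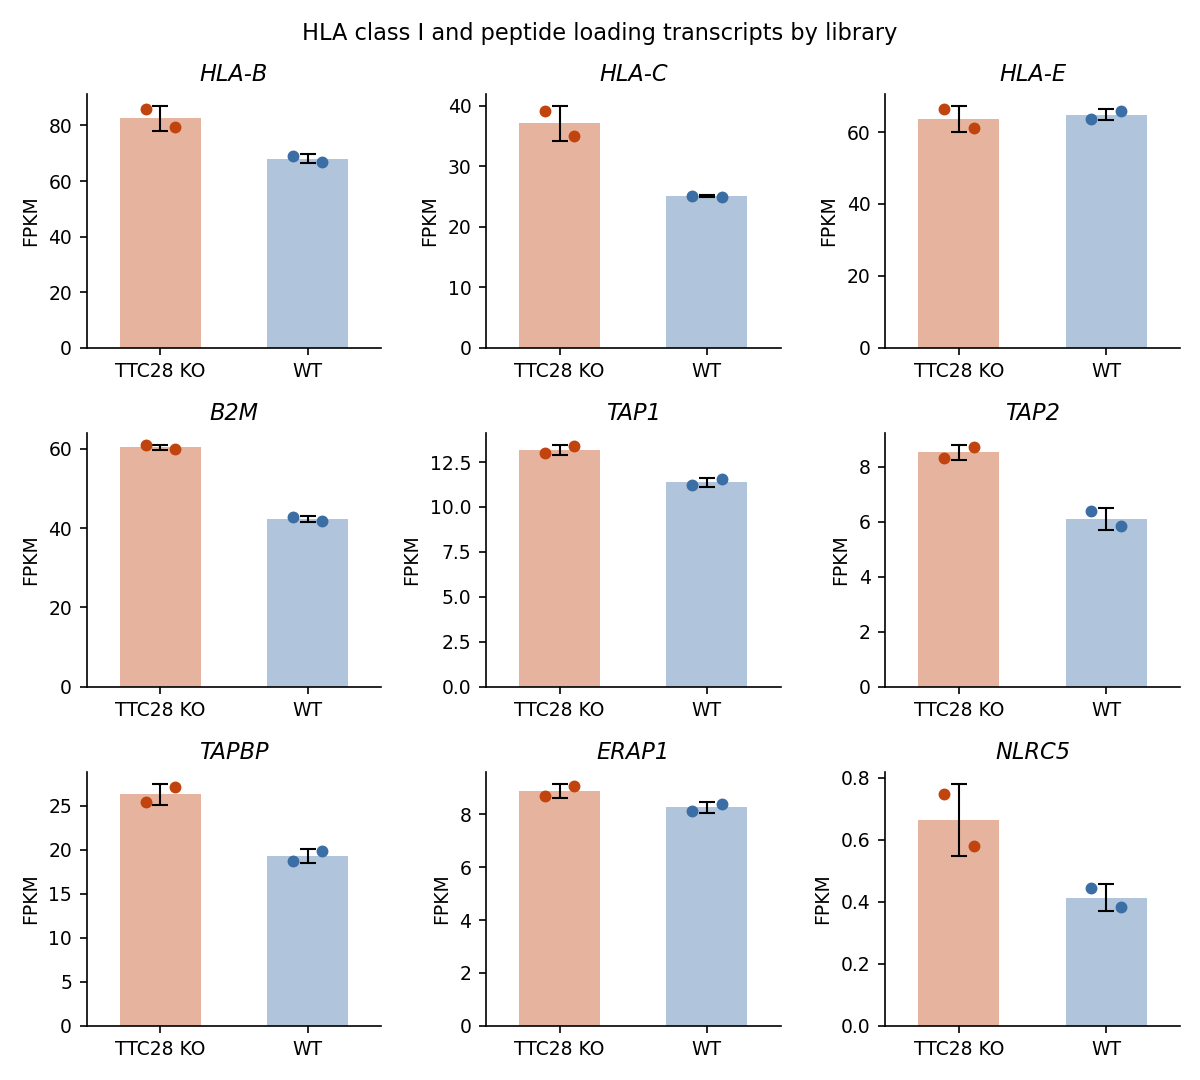
FPKM of each member in each library, with TTC28 KO left of WT in every panel; points are libraries, bars are group means with the SD (n = 2 each), and every axis starts at 0. The points of HLA-E overlap between the groups, those of the other 8 members do not, and NLRC5 stays under 1 FPKM in all 4 libraries.

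Genes of the HLA locus are alike in sequence and crowded, which bears on how firmly reads can be given to one of them. The gene spans of HLA-B and HLA-C overlap in GENCODE release 29, but they share only 35 exonic bases, 1.15% of HLA-B and 1.40% of HLA-C. Of the 50-base stretches of their reference transcripts, 21.0% of HLA-B and 6.71% of HLA-C also occurred in a transcript of another gene. For HLA-B 277 of the 314 such stretches were shared with AL671883.2, an antisense gene with 2 and 0 counts in TTC28 KO and 0 and 2 in WT, and 30 with HLA-C. For B2M and NLRC5 the share was 0. For TAP1 it was 15.2% and for TAP2 35.8%, and 32.3% of the exonic bases of TAP2 lie in AL669918.1, a gene on the same strand that had 0 counts. On the opposite strand ERAP1 shares 299 exonic bases (3.76%) with CAST, which had 9545 and 9020 counts in TTC28 KO and 8674 and 8543 in WT, and TAP1 shares 456 (9.49%) with PSMB8-AS1, which had 16 and 13 counts in TTC28 KO and 7 and 15 in WT. The sources used here do not say whether counting used strand, and the alleles of H1299 were not compared with the reference, so values of single HLA genes are uncertain to that degree.

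Per length, the order of the mean FPKM levels was the same in TTC28 KO and in WT: HLA-B, HLA-E, B2M, HLA-C, TAPBP, TAP1, ERAP1, TAP2 and NLRC5. This order rests on the lengths behind the FPKM, all exonic bases of a gene: 6079 for B2M and 3051 for HLA-B, while the transcripts used for the shared stretches above hold 1705 and 1547 bases. In counts B2M was above HLA-B in every library. Neighbours in the FPKM order were separate in every library of a group, except ERAP1 and TAP2 in TTC28 KO, whose ranges of 8.70 to 9.09 FPKM and 8.33 to 8.73 FPKM overlapped. The heavy and light chains belonged to the well expressed genes, at the 96.4th percentile of all tested genes for HLA-B, the 95.4th for HLA-E, the 94.1st for B2M and the 89.5th for HLA-C. The loading genes stood lower, at the 84.9th percentile for TAPBP, the 71.6th for TAP1, the 61.7th for ERAP1 and the 56.8th for TAP2.

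Ratios of members within a library do not depend on its scaling. The ratio of HLA-C to HLA-E was 0.591 and 0.573 in TTC28 KO, against 0.394 and 0.378 in WT. HLA-B to HLA-E gave 1.29 and 1.30 in TTC28 KO, against 1.08 and 1.01 in WT. That of HLA-C to HLA-B was 0.456 and 0.440 in TTC28 KO, against 0.363 and 0.373 in WT. The ratio of B2M to HLA-E was 0.919 and 0.980 in TTC28 KO, against 0.671 and 0.635 in WT. In both knockout libraries HLA-C thus stood higher against HLA-B and HLA-E than in both WT libraries. In the transporter, TAP2 over TAP1 was 0.642 and 0.652 in TTC28 KO, against 0.570 and 0.505 in WT, and TAPBP over TAP1 was 1.96 and 2.03 in TTC28 KO, against 1.67 and 1.72 in WT. Each of these ratios had separate groups, for which an exact two-sided permutation test of 2 against 2 libraries gives p = 0.333, the smallest it can give.

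**Figure D3:**
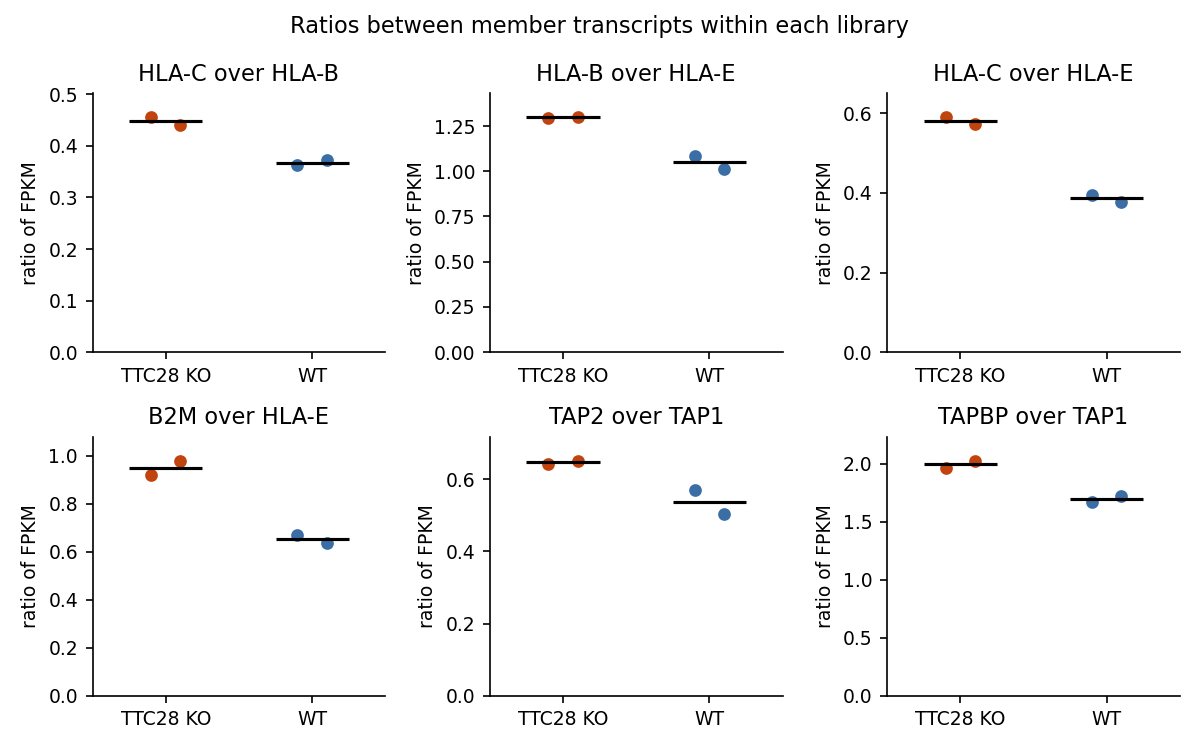
Ratios of FPKM between members within each library, with TTC28 KO left of WT; points are libraries, lines are group means and every axis starts at 0. All 6 ratios drawn were higher in both knockout libraries than in both WT libraries, HLA-C over HLA-E at 0.591 and 0.573 against 0.394 and 0.378.

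Of the other genes of the pathway, 100 genes in 9 lists, 69 were tested: 21 rose, 16 fell and 32 did not pass the test. Their median log2 fold change was 0.09. The lists were assembled from textbook roles. The 3281 genes higher and 3300 lower among all 13079 tested are the background to these counts. Differences of the list genes below are log2 fold changes with SE, levels are mean FPKM ± SD, and n is 2 libraries in each group throughout.

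Among class I and class I-like chains outside the members, FCGRT and HFE rose. FCGRT, the neonatal Fc receptor, had 10.98 ± 0.875 FPKM in TTC28 KO and 6.79 ± 0.112 FPKM in WT (0.70 ± 0.0838, edgeR Benjamini-Hochberg adjusted p = 1.84e-05). HFE, which binds the transferrin receptor, had 4.52 ± 0.374 FPKM in TTC28 KO and 2.95 ± 0.0217 FPKM in WT (0.62 ± 0.0940, edgeR Benjamini-Hochberg adjusted p = 0.000120). HLA-F, a nonclassical chain, had 1.45 and 1.26 FPKM in TTC28 KO, against 1.01 and 0.702 FPKM in WT. It reached the minimum only with the help of the knockout libraries, so its edgeR fold change and adjusted p are not given. It is still counted among the higher pathway genes and the higher genes of the MHC window. On the TPM scale HLA-F was not called (limma adjusted p = 0.137). Like HLA-B and HLA-C, the proteins of FCGRT, HFE and HLA-F pair with B2M. HLA-G and CD1D had 0 counts in all libraries, and MR1, at 94 and 75 counts in TTC28 KO and 67 and 104 in WT, overlapped. Of 11 class I pseudogenes only HLA-H was tested, with 49 and 32 counts in TTC28 KO and 29 and 20 in WT. It too reached the minimum only with the help of the knockout libraries, and did not pass (0.75 ± 0.333, edgeR Benjamini-Hochberg adjusted p = 0.0747). HLA-J had 25 and 20 counts in TTC28 KO and 33 and 27 in WT, and HLA-L 61 and 61 against 61 and 75. HLA-K, HLA-V, HLA-W and HLA-T had 8 counts or fewer in every library, and the other 4 had none.

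Chaperones that fold and edit class I molecules in the endoplasmic reticulum rose in 4 of 8 cases and fell in 1. Calreticulin, the lectin of the peptide loading complex, had 176 ± 11.3 FPKM in TTC28 KO and 105 ± 2.76 FPKM in WT for its gene CALR (0.75 ± 0.0662, edgeR Benjamini-Hochberg adjusted p = 1.44e-06). UGGT1, the sensor that returns misfolded glycoproteins to calreticulin, had 20.0 ± 0.547 FPKM in TTC28 KO and 12.5 ± 1.05 FPKM in WT (0.69 ± 0.0673, edgeR Benjamini-Hochberg adjusted p = 3.22e-06). Its value was 0.30 with the median of its chromosomal neighbours removed. PDIA3, the oxidoreductase bound to tapasin, had 76.9 ± 3.30 FPKM in TTC28 KO and 59.8 ± 0.262 FPKM in WT (0.37 ± 0.0628, edgeR Benjamini-Hochberg adjusted p = 0.000333). Genes for 3 partners in the loading complex, tapasin, calreticulin and PDIA3, were thus each called higher, as were 25.1% of all tested genes. Whether they changed jointly was not tested. TAPBPL, a tapasin-related peptide editor that works outside the complex, had 1.71 ± 0.205 FPKM in TTC28 KO and 1.20 ± 0.0912 FPKM in WT (0.51 ± 0.175, edgeR Benjamini-Hochberg adjusted p = 0.0258; on the TPM scale 0.28, limma adjusted p = 0.155). PDIA6, another disulfide isomerase, fell to 28.0 ± 2.39 FPKM in TTC28 KO, against 40.8 ± 1.00 FPKM in WT (-0.54 ± 0.0676, edgeR Benjamini-Hochberg adjusted p = 2.54e-05). With the median of its chromosomal neighbours removed its value was 0.10. CANX, HSPA5 and GANAB, which serve many proteins besides class I molecules, had log2 fold changes of 0.12, -0.03 and 0.14 and did not pass.

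The immunoproteasome and its activators did not move as 1 group: of 7 genes 1 rose, 2 fell and 4 did not pass. PSMB8, a catalytic subunit, had 12.9 and 11.7 FPKM in TTC28 KO, against 7.64 and 8.50 FPKM in WT (0.61 ± 0.0886, edgeR Benjamini-Hochberg adjusted p = 8.25e-05). PSMB9, the subunit whose gene lies next to TAP1, had 4.37 and 3.28 FPKM in TTC28 KO, against 3.42 and 3.04 FPKM in WT, with overlapping groups (0.25 ± 0.144, edgeR Benjamini-Hochberg adjusted p = 0.160). PSMB10, the third catalytic subunit, had 0.988 and 0.950 FPKM in TTC28 KO, against 1.34 and 1.37 FPKM in WT, and reached the minimum only through the WT libraries (-0.48 ± 0.233, edgeR Benjamini-Hochberg adjusted p = 0.104). PSME3, the nuclear activator that interferon does not induce, fell to 17.2 ± 0.169 FPKM in TTC28 KO, against 24.9 ± 0.610 FPKM in WT (-0.53 ± 0.0604, edgeR Benjamini-Hochberg adjusted p = 1.18e-05). PSME2, of the interferon-induced activator, fell to 18.1 ± 1.60 FPKM in TTC28 KO, against 22.4 ± 0.858 FPKM in WT (-0.30 ± 0.0733, edgeR Benjamini-Hochberg adjusted p = 0.00379), and had 0.06 with the median of its neighbours removed. PSME1 and POMP did not pass.

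Among the other peptidases 1 of 8 tested rose and 2 fell. LNPEP, which trims peptides in endosomes, rose by 0.31 ± 0.0769 (edgeR Benjamini-Hochberg adjusted p = 0.00484; on the TPM scale 0.13, limma adjusted p = 0.275). The cytosolic peptidases LAP3 and NPEPPS fell by 0.29 ± 0.0618 and 0.29 ± 0.0641 (edgeR Benjamini-Hochberg adjusted p = 0.00165 and 0.00229), and NPEPPS was not called with the median of its neighbours removed (-0.11, limma adjusted p = 0.153). ERAP2, the partner of ERAP1, was below the minimum and is named after its values were seen. It had 172 and 185 counts in TTC28 KO, against 70 and 93 in WT, or 0.831 and 1.02 FPKM against 0.360 and 0.460 FPKM. Over the genes with at least 0.1 FPKM it rose by 1.16 ± 0.186 (2.23-fold, edgeR Benjamini-Hochberg adjusted p = 0.000268), the only one to pass of the 11 pathway list genes between the 2 minimums (marker lists apart).

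Of the regulators of class I transcription 19 were tested, 3 rose and 7 fell. STAT2, which carries the signal of type I interferon to the nucleus, had 11.7 ± 0.0226 FPKM in TTC28 KO and 7.16 ± 0.331 FPKM in WT (0.72 ± 0.0708, edgeR Benjamini-Hochberg adjusted p = 3.52e-06). With the median of its neighbours removed STAT2 had 0.36. IRF2 rose by 0.38 ± 0.0961 (edgeR Benjamini-Hochberg adjusted p = 0.00473; on the TPM scale 0.21, limma adjusted p = 0.0647). IRF1, the interferon-induced activator of class I promoters, moved the other way. Named after its values were seen, it had -0.33 ± 0.126 (edgeR Benjamini-Hochberg adjusted p = 0.0450; on the TPM scale -0.39, limma adjusted p = 0.0677). NFYB, a subunit of the factor that binds CCAAT, fell by 0.44 ± 0.0823 (edgeR Benjamini-Hochberg adjusted p = 0.000623). RELA, the NF-kappaB subunit that acts at enhancer A, fell by 0.30 ± 0.0602 (edgeR Benjamini-Hochberg adjusted p = 0.00100). EZH2, the Polycomb methyltransferase known to hold class I genes silent in some tumours, fell by 0.23 ± 0.0649 (edgeR Benjamini-Hochberg adjusted p = 0.00891). RFX5, of the complex on the X box, had 0.08 and did not pass.

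Interferon receptors and their signalling gave 2 genes higher and 3 lower of 8 tested. IFNAR1, a chain of the type I interferon receptor, fell to 6.48 ± 0.145 FPKM in TTC28 KO, against 10.4 ± 0.252 FPKM in WT (-0.68 ± 0.0707, edgeR Benjamini-Hochberg adjusted p = 5.57e-06). With the median of its neighbours removed its value was -0.28. IFNGR2, a chain of the interferon gamma receptor, fell by 0.32 ± 0.0730 (edgeR Benjamini-Hochberg adjusted p = 0.00234; 0.09 with the median of its neighbours removed). PTPN2, a phosphatase that dampens cytokine signalling, fell by 0.25 ± 0.0728 (edgeR Benjamini-Hochberg adjusted p = 0.0122). The feedback inhibitor SOCS3 rose by 0.33 ± 0.0871 (edgeR Benjamini-Hochberg adjusted p = 0.00702; on the TPM scale 0.15, limma adjusted p = 0.102) and the kinase JAK1 by 0.20 ± 0.0657 (edgeR Benjamini-Hochberg adjusted p = 0.0201; with total-count scaling 0.14, edgeR adjusted p = 0.0958).

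In the list of class I traffic and turnover 5 of 13 tested genes rose, 1 fell and the median log2 fold change was 0.14. ARF6, a GTPase of the route by which class I molecules are taken up from the surface, fell to 28.5 ± 2.27 FPKM in TTC28 KO, against 48.7 ± 0.540 FPKM in WT (-0.77 ± 0.0661, edgeR Benjamini-Hochberg adjusted p = 1.09e-06). The others were small: SEC24B rose by 0.35, TRAM1 by 0.31, SEC61A1 and RAB11A by 0.26 each and SEL1L by 0.18 (edgeR Benjamini-Hochberg adjusted p = 0.00100, 0.000939, 0.00429, 0.00241 and 0.0394), and none of these 5 was called on the TPM scale. TRAM1 and SEC61A1 were also not called with the median of their neighbours removed (limma adjusted p = 0.114 and 0.200). Class II genes, which present peptides from outside the cell, were mostly below the minimum. Only HLA-DMA reached it, and only through the knockout libraries, so its fold change and adjusted p are not given. It is still counted among the 69 tested and 21 higher pathway genes, and among the higher genes of the MHC window. Its values were 1.30 and 1.42 FPKM in TTC28 KO, against 0.708 and 0.536 FPKM in WT. HLA-DRA had 0 and 1 counts in TTC28 KO and 0 and 0 in WT, CD74 had 3 and 1 against 3 and 2, and HLA-DPB1 had none. CIITA, the class II counterpart of NLRC5, had 8 and 10 counts in TTC28 KO and 18 and 17 in WT.

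**Figure D4:**
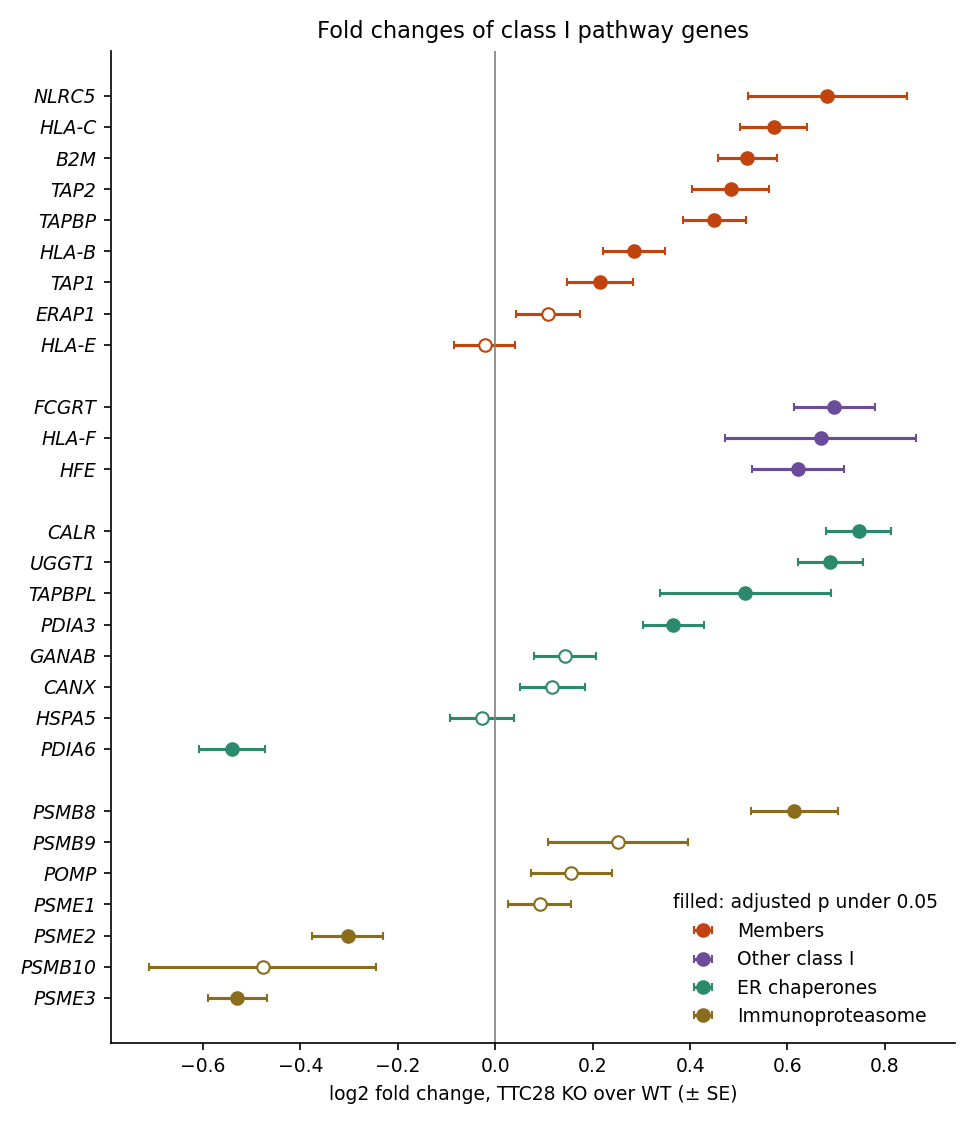
Log2 fold change, TTC28 KO over WT, of the members, of FCGRT, HFE and HLA-F, and of the tested endoplasmic reticulum chaperones and immunoproteasome genes, with the SE as bars; filled points passed the Benjamini-Hochberg adjusted p of 0.05 (edgeR). HLA-B, HLA-C, B2M, TAP1, TAP2, TAPBP and NLRC5 lie right of 0 with filled points, HLA-E and ERAP1 are open, and the immunoproteasome genes lie on both sides. NLRC5 comes from the fit of genes reaching 0.1 FPKM. The filled point of HLA-F is of a gene that reached the minimum only with the help of the knockout libraries.

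Of the 9 members 6 lie in the MHC on chromosome 6. Among 101 tested genes of that window, from GABBR1 to KIFC1 (29555629 to 33409924), 32 were higher (31.7%) and 16 lower, and the median of their log2 fold changes was 0.09. Without the members it was 27 higher and 16 lower of 95 and a median of 0.07. In the rest of chromosome 6, 136 of 589 genes were higher (23.1%), 144 lower and the median was -0.04. The 50 tested genes around each member, 25 on each side, had median log2 fold changes of 0.05 for HLA-B and HLA-C, 0.13 for HLA-E, TAP1 and TAP2, 0.12 for TAPBP, 0.07 for B2M and 0.04 for ERAP1. Around NLRC5 the median was -0.27 and 27 of 50 genes were lower, so NLRC5 differed in sign from its surroundings. With the median of 25 neighbours on each side removed from every library, and limma in place of edgeR, HLA-C (log2 fold change 0.51, limma Benjamini-Hochberg adjusted p = 4.33e-05), B2M (0.45, 5.38e-05), TAP2 (0.36, 0.00296), TAPBP (0.35, 0.00242), HLA-B (0.24, 0.00423) and NLRC5 (0.79, 0.00468, with neighbours from the genes reaching 0.1 FPKM) were higher. TAP1 did not pass (0.10, limma Benjamini-Hochberg adjusted p = 0.296), and HLA-E was then lower (-0.18, limma Benjamini-Hochberg adjusted p = 0.0233).

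**Figure D5:**
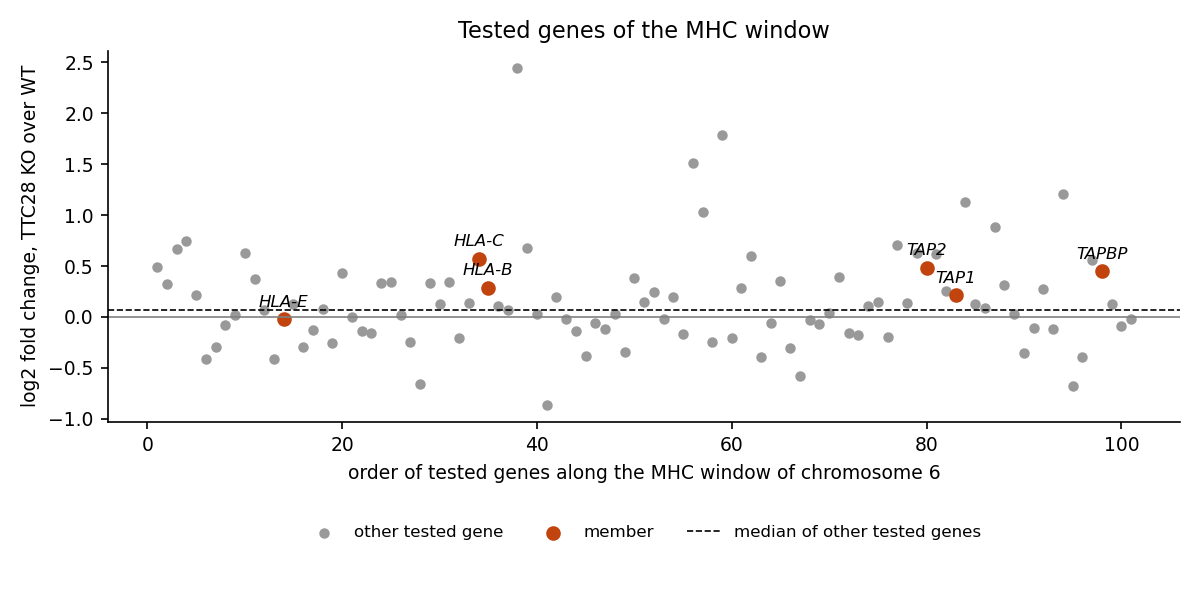
Log2 fold change, TTC28 KO over WT, of the 101 tested genes of the MHC window (vertical axis) in their order along chromosome 6 (horizontal axis). The 6 members are labelled and larger, and the dashed line is the median of the other 95 genes, 0.07; HLA-E lies at -0.02 and the other 5 above the line.

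Across the 4 libraries, the 5 protein-coding genes whose centred log2(FPKM + 1) profile lay nearest the mean profile of the 8 tested members, among 10787 genes, were MCU, EFNB1, PLPP5, SGCE and BCAT2, at Euclidean distances of 0.00777 to 0.0154. Nearest to B2M among 10794 genes were PGS1, SLC37A4, ARL6IP6, C1GALT1C1 and CGN, at 0.0126 to 0.0206. By this measure HLA-C was the 295th nearest gene to B2M, TAP2 the 369th, TAPBP the 524th, HLA-B the 1489th, TAP1 the 2417th, ERAP1 the 3746th and HLA-E the 5458th. With 4 libraries in 2 groups this likeness mostly ranks genes by the size of their difference between the groups.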

How the data were processed

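RNA of 2 TTC28 KO and 2 WT libraries of H1299 cells was prepared with a TruSeq RNA kit, per the labels' protocols. The submitters' processing notes name HISAT2 2.0.5 and the build hg38; the sources used here do not state the counter, its strand setting, the annotation release or the read length. The deposited table holds whole-number raw counts per gene and FPKM by the authors, per the file headers. Group means of scaled counts (a signal), log2 fold changes and p-values are the authors' too, and their test is not named; of these columns only the adjusted p of TAP1 is quoted.

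The test of the counts used edgeR 4.0.16 (R 4.3.3, quasi-likelihood test, TMM factors from 0.978 to 1.02, two-sided, Benjamini-Hochberg adjustment over the 13079 genes reaching 1 FPKM in 2 or more libraries, threshold 0.05). The common biological coefficient of variation was 0.0566 and the median SE of a log2 fold change 0.0885. Library totals were 25120500 to 28885443 counts. DESeq2 1.42.0, limma 3.58.1 (with log2 of FPKM or TPM plus 1, and FPKM plus 0.1), other scalings and filters, removal of the local median of 25 genes on each side (followed by limma), each library left out in turn and a replicate block were alternatives. The fits were also run on simulated counts in which few genes changed and all genes had the same coefficient of variation. The measured data differ from that setting, so the run does not show how reliable the calls here are. Log2(FPKM + 1) gave the profiles of likeness.

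Exon overlaps came from GENCODE release 29, which holds 100% of the gene identifiers, and 50-base stretches from its transcripts. Promoters came from RefSeq (GRCh38.p14). Protein sequences were not used here. Spreadsheet dates were turned back into 27 gene symbols. Members, lists, tests and alternatives were chosen with earlier results of these data known. The genes named are the 9 members, TTC28, up to 6 genes per list past the threshold with the smallest p, HLA class I rows with counts, and the 5 genes nearest in profile; some genes of the lists are not reported here, and genes named without passing serve to account for their lists.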

Additional observations from a re-analysis of the deposited data

How the results depend on the processing

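HLA-C, B2M, TAP2 and TAPBP kept their direction and call in all 18 alternatives, with lowest log2 fold changes of 0.40, 0.35, 0.30 and 0.28. On the TPM scale, where the median of all genes moved by -0.16 and 25.5% of the calls were higher (49.9% in the analysis reported, 40.0% with total counts), HLA-B had 0.12 (limma adjusted p = 0.225), TAP1 0.047 (0.557), ERAP1 -0.056 and NLRC5 0.32 (0.221), 4 members were higher, 9 pathway genes were higher against 21 reported, and 1582 genes were higher over all, against 3281. Part of this came with the change of test, since limma on log2(FPKM + 1) gave 15 pathway genes higher and 2783 over all, with 6 members higher. TAP1 had 0.15 with total-count scaling (edgeR adjusted p = 0.0831) and 0.10 with the local median removed (limma, 0.296), where HLA-E had -0.18 (0.0233); the cause was not tested. NLRC5 had 0.23 with limma on log2(FPKM + 1) (adjusted p = 0.130) and 0.57 on log2(FPKM + 0.1) (0.144). With at least 5 FPKM, where fewer genes were tested, 2169 were higher and 2177 lower.

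Leaving out each library in turn gave log2 fold changes of 0.19 to 0.24 for TAP1, 0.48 to 0.85 for NLRC5 and -0.076 to 0.030 for HLA-E, whose sign turned without TTC28 KO replicate 2 (0.030); members higher were 5 or 6. The pathway genes lower were 9 to 15, with 9 without WT replicate 1. The lone library is then assumed to vary like the other group.

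Same-numbered replicates did not deviate together (r = -0.001 across 13079 genes, not independent). This cannot tell whether the libraries were prepared in pairs, which the labels do not say. A replicate block gave 3515 genes higher and 3593 lower, 6 members higher, and changed no member's call. With totals free of mitochondrially encoded genes 6 members were higher. With 2 libraries in each group, the 2 tested members that did not pass are not shown to be equal.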
